A study of Homo sapiens with 6 samples.

Results

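Gene expression was compared on day 8 of reprogramming towards pluripotency between 2 sorted groups of BJ cells, a human fibroblast line established from foreskin. Double-negative cells had been sorted as lacking both surface proteins CD13 and CD201, and double-positive cells as carrying both. The comparison uses 4 of the 6 libraries of the series, 2 per group, and its members are the 12248 genes, of 27788 in the table, with a mean of at least 1 FPKM (mapped fragments scaled for transcript length and library size) over those 4 libraries. The sort, not a measured transcript, put each library in its group. Of genes just inside that limit PBLD had a mean of 1.002 FPKM, and of genes just outside LOC105371049 had 0.9997. Genes with a mean below 1 FPKM in either group passed the limit only through the group where they were higher. LSAMP, CES1, HGF and GJB2 below are examples, and the limit itself favours a difference in such genes. Cells with CD201 but without CD13 (CD201-only, 2 libraries) entered the same model, and their values are given beside the results.

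All cells, in each group, had been infected with lentivirus carrying 2 polycistronic constructs, O2S (OCT4 and SOX2) and K2M (KLF4 and MYC). They were kept in serum first, moved onto Matrigel by passage, and then held in medium for human embryonic stem cells with basic FGF until they were lifted with trypsin and sorted. No group of uninfected cells was part of the comparison, and the sort gates are the only difference between groups that the labels name. BJ cells come from 1 donor, and the labels do not say whether libraries of a group came from separate cultures. The p-values therefore measure only the spread between these libraries, which may be technical. In bulk RNA, fewer cells of a type and less RNA per cell cannot be told apart.

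CD13, encoded by ANPEP, is an aminopeptidase of the outer cell membrane that fibroblasts and other mesenchymal cells carry in abundance. CD201, encoded by PROCR, is the receptor for protein C. Both serve as surface markers of fibroblast identity when cells are reprogrammed, and their loss is used to enrich cells that have moved away from that identity. During such conversion fibroblasts give up mesenchymal programs, take on epithelial and then pluripotent ones, and divide faster with more compact cell bodies. Lists of matrix, cell cycle and pluripotency genes, which make up most accounts of this path, were set apart here, and the remaining genes are described. Those lists are not complete. Genes named below, such as the metalloproteinase MMP11, can belong to the same programs.

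FPKM sums were 489152 to 521352 per library over the 6 libraries, and relative depth, read from the smallest steps between FPKM values of a gene, was 0.731 to 1.0 of the deepest library. Libraries of the same group correlated at 0.992 or more on the log2 scale, and double-negative with double-positive libraries at 0.9521 or less. Differences are means of log2(FPKM + 1) in double-negative minus double-positive libraries, a scale that understates the fold of genes at low FPKM. Calls were made below an adjusted p of 0.05 by limma, a linear model with variances shared over genes, adjusted over all 12248 genes. By that rule 5165 genes, 42.2%, were higher in double-negative cells and 3030 genes, 24.7%, were lower. At a log2 difference of at least 1, termed 2-fold below, 253 genes (2.07%) were higher and 588 (4.8%) lower, and past 4-fold 8 (0.0653%) were higher and 93 (0.759%) lower. The median of all genes was 0.11. Median-ratio rescaling brought that median to 0.0037 and the share of calls that were higher from 63.0% to 48.4%, so small positive differences below are read against this shift. Of 23 named genes given below as not called, 19 passed the threshold under this rescaling or a correction for transcript GC content. In the set-apart lists 43 of 48 tested matrix genes were lower, 45 of 48 cell cycle genes higher and 16 of 18 pluripotency genes higher.

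The transcripts behind the sort were lower in the double-negative group, and both were well above 0 there. ANPEP read 35.7 and 36.2 FPKM in the double-negative and 158 and 153 in the double-positive libraries. It fell by 2.08 (SE 0.0303, adjusted p = 2.51e-08). PROCR read 16.6 and 18 FPKM in the double-negative and 51.3 and 52.5 in the double-positive libraries and fell by 1.53. The CD201-only libraries, negative for CD13 by sort, had 29.1 and 28.7 FPKM of ANPEP, so the double-negative libraries stood above them for this transcript. PROCR in the CD201-only libraries was 45.8 and 49.1 FPKM, close to the double-positive level.

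The largest rises outside the set-apart lists were those of GPC4, of the metallothioneins MT1G and MT1H (given further on), and of SOSTDC1 and PROM1. GPC4, a glypican that carries heparan sulfate at the cell surface, read 18.6 and 16.1 FPKM in the double-negative and 2.19 and 2.25 in the double-positive libraries. It rose by a log2 difference of 2.50 (adjusted p = 8.22e-07), and the CD201-only libraries had 4.18 and 4.83 FPKM. SOSTDC1, a secreted antagonist of BMP and WNT signalling, read 71.8 and 72.4 FPKM in the double-negative and 17.4 and 17.8 in the double-positive libraries. PROM1, the membrane protein known as CD133, rose from 2.38 ± 0.153 to 12.2 ± 0.713 FPKM. Each double-negative value of these 3 genes lay above every CD201-only value, and above every double-positive value as their selection required. SERPINB9, an intracellular inhibitor of granzyme B, rose from 19.7 ± 0.0564 to 78.6 ± 2.99 FPKM. CD200, a surface ligand that restrains immune cells, rose from 2.99 ± 0.307 to 12.7 ± 0.79 FPKM, and GRPR, the receptor for gastrin-releasing peptide, rose from 4.84 ± 0.353 to 19.9 ± 0.353 FPKM. JPH1, a junctophilin that ties the endoplasmic reticulum to the plasma membrane, rose from 4.46 ± 0.219 to 18 ± 0.236 FPKM.

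Further rises among the 15 largest were in an enzyme, a mitochondrial carrier and a transcription factor, with 1 noncoding RNA. CA2, a cytosolic carbonic anhydrase, rose from 1 ± 0.241 to 6.5 ± 0.0152 FPKM. UCP1, the uncoupling protein of brown fat mitochondria, read 5.4 and 5.79 FPKM in the double-negative and 0.851 and 0.954 in the double-positive libraries. Its level stayed low in every group, and the rule for the largest rises required double-negative and double-positive libraries not to overlap. LHX9, a LIM homeobox factor of the developing gonad and limb, rose from 6.81 ± 0.237 to 27.1 ± 0.284 FPKM. The long noncoding RNA LINC00678 read 67.4 and 74.7 FPKM in the double-negative and 17.8 and 18.1 in the double-positive libraries, against 19.2 and 22.1 FPKM in the CD201-only libraries. C9orf135, a membrane-associated protein, rose from 7.28 ± 1.09 to 29.5 ± 0.0143 FPKM.

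Among transcripts that reached 100 FPKM in the higher group, the largest rises outside the metallothioneins were TUBB4A and IFI27. TUBB4A, a beta-tubulin best known from brain, read 239.6 and 245 FPKM in the double-negative and 77 and 75.3 in the double-positive libraries. IFI27, an interferon-induced mitochondrial protein, read 508 and 510.4 FPKM in the double-negative and 194 and 198 in the double-positive libraries, with 197 and 196 FPKM in the CD201-only libraries. The double-positive and CD201-only levels of IFI27 were thus alike in mean, and the double-negative level stood above both. SPINT2, a membrane-bound inhibitor of serine proteases found in epithelia, rose from 65.9 ± 0.641 to 152 ± 3.43 FPKM, and its CD201-only level of 133 and 134 FPKM was close to the double-negative one. ALDH1A1, which makes retinoic acid from retinal, rose from 52.1 ± 9.55 to 116 ± 0.223 FPKM. KCTD12, an auxiliary subunit of GABA-B receptors, rose from 47.1 ± 0.953 to 106 ± 0.422 FPKM, with a CD201-only mean of 31.5 ± 0.771 FPKM, the lowest of the 3 groups. LPCAT3, which loads polyunsaturated fatty acids into phospholipids, rose from 55.1 ± 0.21 to 123 ± 0.11 FPKM, and the noncoding RNA LINC02582 rose from 60.1 ± 2.56 to 133 ± 6.03 FPKM.

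**Figure D1:**
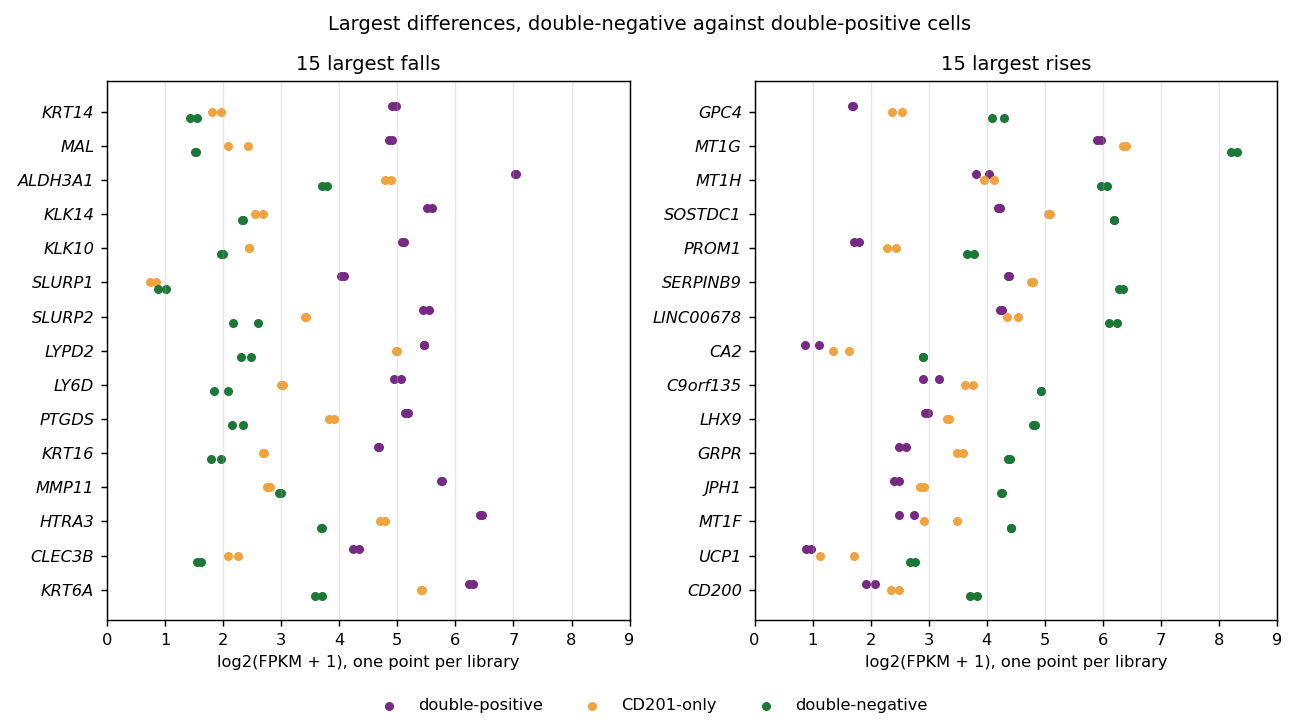
Log2(FPKM + 1) in each library for the 15 genes with the largest falls (left) and the 15 with the largest rises (right) in double-negative against double-positive cells outside the matrix, cell cycle and pluripotency lists, one point per library, coloured by group. The rule of choice required the double-negative points to lie on one side of the double-positive points in every gene shown. The CD201-only mean lies between the other 2 means in 28 of 30 genes and below both in SLURP1 and MMP11. Choosing the largest differences between the other 2 groups favours such a place, and the share over all genes was not counted.

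The largest falls were those of KRT14, MAL, ALDH3A1, KLK14 and KLK10. KRT14, a keratin of basal keratinocytes, read 1.94 and 1.7 FPKM in the double-negative and 29.1 and 30.3 in the double-positive libraries. Its log2 difference was -3.45 (SE 0.0794, adjusted p = 1.2e-07), and CD201-only libraries had 2.92 and 2.51 FPKM. MAL, a membrane raft protein of apical sorting, fell from 28.5 ± 0.762 to 1.88 ± 0.0235 FPKM. KLK14, a kallikrein protease that acts in the shedding of outer skin layers, and its relative KLK10 fell from 45.9 ± 1.95 to 4.04 ± 0.0171 FPKM and from 33.3 ± 0.419 to 2.96 ± 0.0512 FPKM. KRT16, a keratin of activated epidermis, fell from 24.5 ± 0.373 to 2.67 ± 0.292 FPKM. KRT6A, its usual partner, read 12.1 and 11 FPKM in the double-negative and 74.7 and 78 in the double-positive libraries, and its CD201-only values of 41.9 and 41.6 FPKM lay between. Keratins have close paralogues, and how the authors' pipeline divided shared fragments is not given in the sources used here.

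Enzymes and secreted factors of other kinds fell as far. ALDH3A1, an aldehyde dehydrogenase abundant in cornea, read 12.9 and 12.1 FPKM in the double-negative and 131 and 129.9 in the double-positive libraries. Its CD201-only values were 28.6 and 26.8 FPKM, so all 3 groups were apart. PTGDS, which makes prostaglandin D, read 3.47 and 4.08 FPKM in the double-negative and 35.5 and 34.2 in the double-positive libraries. HTRA3, a secreted serine protease, fell from 86.2 ± 1.68 to 12 ± 0.0817 FPKM, MMP11, the metalloproteinase stromelysin-3, fell from 53 ± 0.379 to 6.88 ± 0.126 FPKM, and CLEC3B, the plasminogen-binding protein tetranectin, fell from 18.5 ± 1 to 2.01 ± 0.105 FPKM.

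Among transcripts that reached 100 FPKM in double-positive cells, the falls included the secreted signals IL1B and CXCL1 and the secreted inhibitors NBL1 and DKK3. IL1B, the cytokine interleukin-1 beta, read 41.4 and 42.1 FPKM in the double-negative and 177 and 195 in the double-positive libraries. CXCL1, a chemokine that draws neutrophils, read 35.8 and 34.9 FPKM in the double-negative and 162 and 157 in the double-positive libraries. The CD201-only libraries had 12.1 and 12.2 FPKM of IL1B and 32.4 and 32.6 FPKM of CXCL1. The CD201-only level was thus the lowest for both genes, by a wide margin for IL1B and a narrow one for CXCL1. PLAU, the plasminogen activator urokinase, fell from 213 ± 3.69 to 47.1 ± 1.89 FPKM, and TGM2, a transglutaminase that crosslinks proteins, fell from 115 ± 1.55 to 20.7 ± 0.588 FPKM. The BMP antagonist NBL1 fell from 203 ± 1.8 to 48.9 ± 1.8 FPKM and DKK3, a member of the Dickkopf family, from 197 ± 0.249 to 51.2 ± 2.05 FPKM. CLEC11A, a secreted growth factor for bone-forming cells, fell from 140.1 ± 2.64 to 36.3 ± 0.275 FPKM, and ECM1, a secreted glycoprotein of skin, from 114 ± 5.99 to 25.9 ± 0.366 FPKM. The CD201-only means of PLAU, NBL1, DKK3 and CLEC11A were 42.7, 43, 39 and 26.6 FPKM, also below both other groups. Those of TGM2 and ECM1, at 85.7 and 43.2 FPKM, lay between the other groups.

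Some of the largest differences belonged to genes that lie side by side. Along the tested genes of each chromosome there were 12 stretches of at least 3 neighbours that were all called at least 2-fold the same way. The one stretch of rises was on chromosome 16 and held MT1F, MT1G, MT1H and MT1X. These code for metallothioneins, small cysteine-rich proteins that bind zinc and copper and that metal-bound transcription factor MTF1 switches on. The promoters of MT1H and MT1X are shown because the neighbours moved together. Each line holds the 250 bases before the gene's start, from RefSeq on GRCh38.p14, read in the gene's direction, with capitals at matches on either strand to TGCGCNC or TGCACNC, the forms of the metal response element.
MT1H, chr16:56669564-56669813, plus strand: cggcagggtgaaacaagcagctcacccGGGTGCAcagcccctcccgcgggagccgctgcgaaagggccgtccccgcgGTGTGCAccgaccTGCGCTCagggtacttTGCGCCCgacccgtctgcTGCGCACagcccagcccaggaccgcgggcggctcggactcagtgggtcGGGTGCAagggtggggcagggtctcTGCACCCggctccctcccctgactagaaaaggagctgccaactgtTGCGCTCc
MT1X, chr16:56682220-56682469, plus strand: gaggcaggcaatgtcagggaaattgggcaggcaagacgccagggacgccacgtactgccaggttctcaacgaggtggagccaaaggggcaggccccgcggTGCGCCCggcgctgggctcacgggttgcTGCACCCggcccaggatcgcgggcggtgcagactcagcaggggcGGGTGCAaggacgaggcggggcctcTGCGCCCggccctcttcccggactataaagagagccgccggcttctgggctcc
MT1H held 4 matches to TGCGCNC and 4 to TGCACNC, and MT1X 2 and 2. TGCGCNC occurred in 27.2% of the 9805 tested genes with a promoter sequence and TGCACNC in 9.41%, so a match to the first is common, and a match is no evidence of a site in use.

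MT1H read 66.4 and 61.8 FPKM in the double-negative and 15.4 and 13.1 in the double-positive libraries, and 16.5 and 14.5 FPKM in the CD201-only libraries. The double-positive and CD201-only libraries were nearly level for this gene and the double-negative ones stood well above. MT1X, one of the most abundant transcripts of the family, read 1018 and 951 FPKM in the double-negative and 363 and 364 in the double-positive libraries, and its CD201-only values of 625 and 622 FPKM lay between. MT1G rose from 59.9 ± 1.77 to 303 ± 14.9 FPKM, MT1F from 5.18 ± 0.775 to 20.4 ± 0.103 FPKM, MT1E from 116 ± 3.52 to 263 ± 5.32 FPKM and MT1M from 2.82 ± 0.542 to 7.7 ± 2.07 FPKM. MT2A rose by less than 2-fold, from 643 ± 12 to 987 ± 8.52 FPKM (log2 difference 0.62). Metallothionein genes are near-identical in sequence, so the split of fragments among them is uncertain, and how much of each rise reflects fragments of another was not tested. Within the zinc and copper list 17 of 30 tested genes were higher and 6 lower (median 0.20, against 0.11 over all genes). After median-ratio rescaling 13 were higher and 9 lower. Without rescaling 7 were 2-fold higher. Of those, MT1G, MT1H, MT1F, MT1X, MT1M and MT1E are metallothioneins and SLC39A10 is not.

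The longest stretch of falls was on chromosome 8 and held SLURP1, LYPD2, SLURP2, LYNX1 and LY6D. They code for small proteins with the LY6 fold, secreted or anchored to the membrane, several of which bind acetylcholine receptors. SLURP1 read 0.845 and 1.03 FPKM in the double-negative and 16 and 15.3 in the double-positive libraries, with 0.792 and 0.663 FPKM in the CD201-only libraries. LYPD2 read 4.57 and 3.93 FPKM in the double-negative and 43.2 and 43 in the double-positive libraries, with 30.6 and 31 FPKM in the CD201-only libraries. The CD201-only group thus had SLURP1 at the double-negative level and LYPD2 nearer the double-positive level. LY6D fell from 31 ± 1.99 to 2.91 ± 0.458 FPKM, SLURP2 from 43.9 ± 2.21 to 4.3 ± 1.13 FPKM and LYNX1 from 6.56 ± 0.0729 to 1.89 ± 0.0843 FPKM. SLURP2 and LYNX1 overlap, so their fragments may not be separable.

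**Figure D2:**
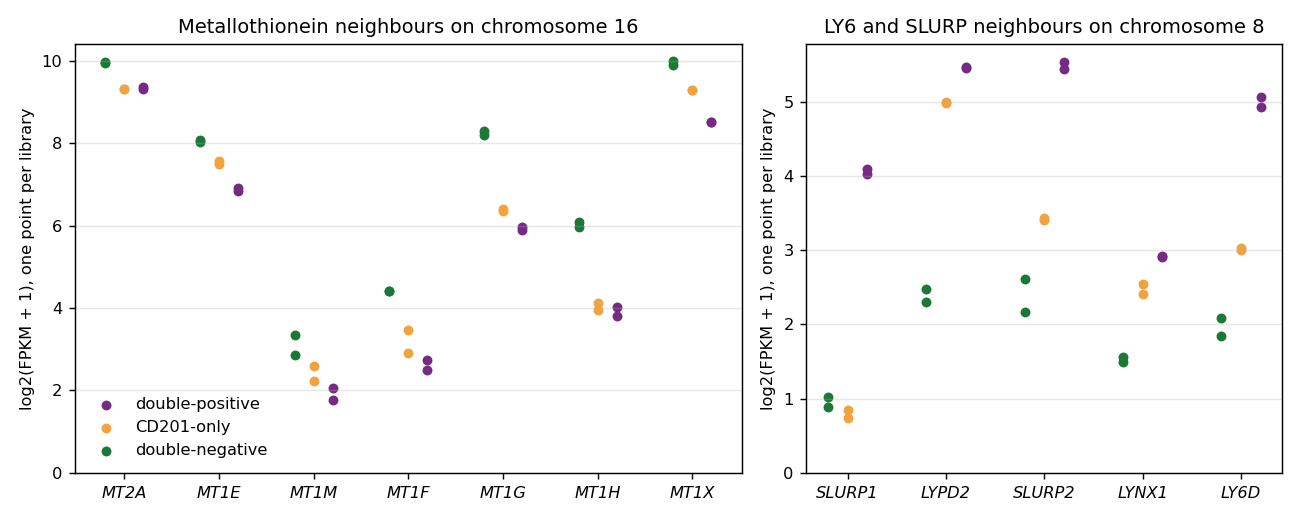
Log2(FPKM + 1) in each library for the metallothionein genes of chromosome 16 (left) and the LY6 family genes of chromosome 8 (right), one point per library, coloured by group. Each of the 7 metallothioneins is highest in the double-negative libraries, and each of the 5 LY6 family genes is highest in the double-positive libraries.

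The other stretches were all lower. On chromosome 1 the epidermal differentiation genes RPTN, FLG, SPRR1A and SPRR3 lay together, and nearby S100A3 and S100A2, calcium-binding proteins of hair and epithelium, with LOC101928034. FLG, filaggrin of the cornified layer, fell from 10.7 ± 0.511 to 1.74 ± 0.131 FPKM, SPRR3, a small proline-rich protein of the cell envelope, from 16.3 ± 1.21 to 3.12 ± 0.218 FPKM, and S100A2 from 8.04 ± 0.713 to 3.03 ± 0.883 FPKM. Also on chromosome 1 were CAMK1G, the laminin chain LAMB3 and G0S2, an inhibitor of fat breakdown. On chromosome 4 the chemokines CXCL8, CXCL6 and CXCL1 fell together, and CXCL8, interleukin-8, went from 23.2 ± 9.58 to 8.84 ± 1.46 FPKM. Chromosome 5 had CSF2, P4HA2 and PDLIM4. Chromosome 11 had KIAA1549L, C11orf91 and CD59, and apart from them ROBO3, ROBO4 and SLC37A2. The remaining stretches were TNS2, SPRYD3 and IGFBP6 on chromosome 12, ITGA3, PDK2 and SAMD14 on chromosome 17, and OLFM2, COL5A3 and C19orf66 on chromosome 19.

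The remaining results follow functional lists. A list is described by its counts of called members beside the background of 42.2% higher and 24.7% lower, and by its median beside the 0.11 of all genes. Genes of a list are not independent of each other, and no list was tested as a set.

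Lists of the nucleus and of RNA processing were nearly uniform in direction, each with small differences. Of 36 histone variant and histone chaperone genes 33 rose and 0 fell, with a median of 0.48, and 30 rose after median-ratio rescaling. HMGB2, a DNA-bending chromatin protein, read 177 and 175 FPKM in the double-negative and 89 and 95.4 in the double-positive libraries. NASP, which carries linker and core histones, rose from 56.9 ± 2.77 to 99.5 ± 2.36 FPKM, SET, a histone chaperone and phosphatase inhibitor, from 69.8 ± 1.71 to 125 ± 6.27 FPKM, and HMGN5, a nucleosome-binding protein, from 1.1 ± 0.139 to 3.15 ± 0.131 FPKM. DAXX, which deposits histone H3.3, was not called at 31.2 ± 0.5 FPKM against 30.8 ± 1.3. Among nuclear pore and transport genes 30 of 33 rose (median 0.48). NUP93, a scaffold of the pore's inner ring, rose from 60.1 ± 1.29 to 118 ± 0.159 FPKM, and the lamina genes LBR and LMNB1 rose from 10.7 ± 0.699 to 21.3 ± 1.61 FPKM and from 17.2 ± 0.948 to 32.6 ± 0.0178 FPKM. EMD, which encodes the lamina protein emerin, was not called (78.5 ± 0.114 against 79.7 ± 0.159 FPKM).

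Splicing factors rose in 40 of 44 cases, with a median of 0.41 and none at 2-fold. HNRNPA2B1 rose from 325 ± 2.61 to 516 ± 0.898 FPKM, HNRNPH1 from 105 ± 0.974 to 178 ± 3.52 FPKM and SRSF7, a serine-arginine-rich splicing factor, from 56.7 ± 0.151 to 93.8 ± 0.919 FPKM. Of 40 ribosome biogenesis genes 33 rose and 0 fell (median 0.28), and after median-ratio rescaling 22 rose and 3 fell. Nucleophosmin, NPM1, rose from 149.7 ± 6.62 to 235 ± 0.65 FPKM and nucleolin, NCL, from 276 ± 3.56 to 405 ± 1.48 FPKM. Translation factors rose in 23 of 27 cases, in 18 after rescaling and in 15 after a correction for transcript GC content, led by the helicase EIF4A2 (from 82.6 ± 10.9 to 119.5 ± 0.721 FPKM, 0.53, and 0.31 after that correction) and the elongation factor EEF1A1 (from 727 ± 112 to 1044 ± 14.2 FPKM). Among genes of microRNA processing and RNA modification 20 of 28 rose, and 15 after rescaling. IGF2BP3, an RNA-binding protein of embryonic tissue, rose from 6.58 ± 0.0743 to 13.3 ± 0.431 FPKM, and DROSHA, the nuclease that cuts primary microRNAs, from 9.42 ± 0.823 to 17 ± 0.0046 FPKM. In the CD201-only libraries NCL and HNRNPA1 had means of 418 ± 0.481 and 245 ± 0.871 FPKM, as high as the double-negative means of 405 ± 1.48 and 244 ± 0.305.

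DNA repair genes rose in 37 of 48 cases and fell in 4, with a median of 0.47, and 27 rose after rescaling. FANCD2 of the Fanconi pathway rose from 2.79 ± 0.347 to 6.44 ± 0.344 FPKM and PARP1, the sensor of strand breaks, from 82.7 ± 0.788 to 155 ± 0.143 FPKM. Several of these genes follow the cell cycle, whose list was also mostly higher, and the part of proliferation was not tested. XRCC1, of base excision repair, was not called (22.6 ± 0.667 against 20.9 ± 0.53 FPKM). Telomere genes were mixed, with 9 of 18 higher and 3 lower, and after rescaling 3 and 4. The shelterin subunit TERF2IP fell from 27.9 ± 1.37 to 19.1 ± 0.506 FPKM, and DKC1, the pseudouridine synthase bound to telomerase RNA, rose from 22.1 ± 0.402 to 29.5 ± 0.974 FPKM. Only 6 of 30 germ-line genes passed the FPKM limit. NANOS3 fell from 2.37 ± 0.471 to 0.746 ± 0.601 FPKM, a log2 difference of -0.98 that was -0.84 and not called without double-positive replicate 1, and -0.63 without double-negative replicate 1. The other calls, DND1, TDRKH, NANOS1 and TEX10, were rises of at most 0.55. TEX10 (0.25) lost its call in 9 alternatives, among them each rescaling, and ranged from 0.12 to 0.39 when 1 library was left out.

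Chaperones went both ways. Of 30 tested genes 20 rose and 7 fell. The mitochondrial chaperonins HSPD1 and HSPE1 rose from 90.3 ± 1.19 to 166 ± 2.58 FPKM and from 65.8 ± 1.58 to 112 ± 2.28 FPKM. The small heat shock proteins HSPB8, HSPB6 and CRYAB, which hold unfolded proteins in muscle and other stressed cells, were the 3 members that fell 2-fold. CRYAB read 7.66 and 5.19 FPKM in the double-negative and 15.1 and 14.5 in the double-positive libraries. HSF1, the factor that switches on heat shock genes, was not called (44.1 ± 1.13 against 46.9 ± 1.29 FPKM). Proteasome subunits rose in 30 of 33 cases, but by a median of only 0.20, and 17 rose after rescaling. PSMD14, a deubiquitinase of the lid, rose from 29.3 ± 2.23 to 40.7 ± 1.7 FPKM, a log2 difference of 0.46 that became 0.18 and was not called after the GC correction described in the closing section.

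**Figure D3:**
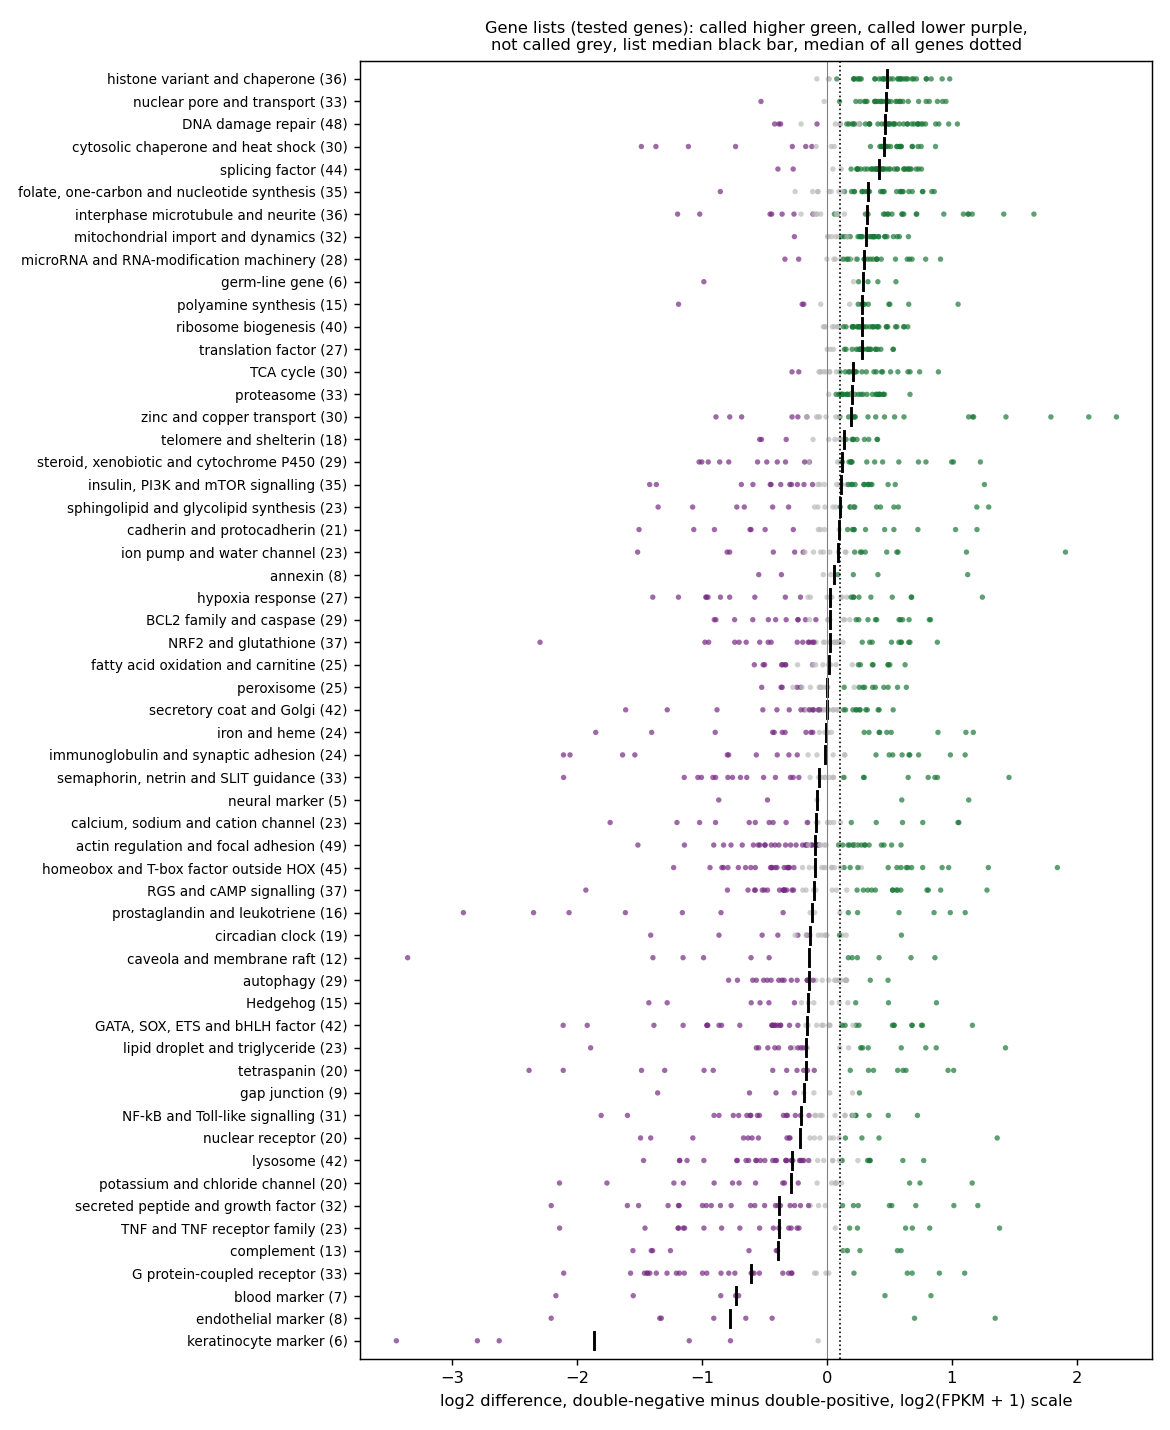
Log2 difference, double-negative minus double-positive, of each tested gene in the functional and marker lists, one point per gene, green where called higher, purple where called lower and grey where not called, with the number of tested genes after each name. Black bars are list medians and the dotted line the median of all genes, 0.11; the histone, nuclear pore and DNA repair lists are at the top and the G protein-coupled receptor, blood, endothelial and keratinocyte lists at the bottom.

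Degradation in lysosomes went the other way. Of 42 lysosomal genes 27 fell and 7 rose (median -0.28). CTSB, the protease cathepsin B, read 136 and 138 FPKM in the double-negative and 300.5 and 298 in the double-positive libraries. Cathepsin L (CTSL) fell from 172 ± 10.9 to 75.3 ± 1.58 FPKM and cathepsin K (CTSK), which degrades collagen, from 87.6 ± 3.43 to 43.7 ± 1.04 FPKM. The double-positive values were the highest of the 3 groups for each of these cathepsins. TFEB, the factor that drives lysosomal genes, fell from 4.82 ± 0.204 to 1.57 ± 0.0898 FPKM, and IDUA, which degrades glycosaminoglycans, from 6.72 ± 0.234 to 1.8 ± 0.261 FPKM. Cathepsin F (CTSF) was not called at 56.3 ± 0.087 against 54.5 ± 0.607 FPKM. Autophagy genes fell in 16 of 29 cases, none by 2-fold. The cargo receptors OPTN and SQSTM1 fell from 41 ± 0.355 to 23.3 ± 0.116 FPKM and from 244 ± 2.53 to 148 ± 2.12 FPKM, and ULK1, the kinase that starts autophagy, from 29.5 ± 0.305 to 20.4 ± 0.188 FPKM (-0.51, and -0.27 after the GC correction).

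In the secretory list 12 of 42 genes rose and 13 fell, but 6 rose and 22 fell after rescaling and 6 and 17 after the GC correction. CREB3L1, a membrane-bound factor that raises secretory capacity in cells making collagen, fell from 35.4 ± 1.63 to 10.9 ± 0.335 FPKM, and the coat subunit COPZ2 from 22.2 ± 0.628 to 8.56 ± 0.341 FPKM. SURF4, a cargo receptor, was at 187 ± 0.1 against 186 ± 1.13 FPKM and was not called. Among caveola and raft genes 6 of 12 rose and 6 fell. CAV1, the main caveolin, read 123 and 121 FPKM in the double-negative and 268 and 278 in the double-positive libraries, and EHD2, which stabilises the caveolar neck, fell from 98.1 ± 0.897 to 36.8 ± 0.442 FPKM. CAVIN2, another coat protein of caveolae, rose from 47.8 ± 1.34 to 87.9 ± 0.157 FPKM. CAV1 in the CD201-only libraries was 64.3 and 67.8 FPKM, lower than in both other groups. Among tetraspanins, membrane organisers with 4 spans, CD82 fell from 41.8 ± 2.1 to 7.19 ± 0.238 FPKM and TSPAN1 from 6.3 ± 1.12 to 0.68 ± 0.0749 FPKM, and TSPAN12 rose from 0.579 ± 0.142 to 2.19 ± 0.0876 FPKM. In that list 12 of 20 fell and 8 rose, and its median of -0.17 became 0.0035 after the GC correction. Of 8 annexins, calcium-dependent membrane binders, 4 rose and 2 fell, and 2 and 2 after rescaling. After the GC correction the annexin split turned to 2 higher and 5 lower. Annexin A3 (ANXA3) rose from 11.6 ± 0.894 to 26.6 ± 0.894 FPKM, and annexin A5 (ANXA5), at 218 ± 3.3 against 223 ± 19.9 FPKM, was not called.

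Mitochondrial lists were higher by small amounts. Of 30 genes of the citric acid cycle 20 rose and 2 fell, and after rescaling 14 rose and 5 fell. Citrate synthase (CS), the entry enzyme, read 138 and 137 FPKM in the double-negative and 70.1 and 77 in the double-positive libraries. Isocitrate dehydrogenase genes IDH1, which is cytosolic, and IDH3A rose from 47.1 ± 0.619 to 79.6 ± 0.498 FPKM and from 22.9 ± 1.93 to 36.9 ± 1.08 FPKM, and the succinate dehydrogenase subunit SDHA was not called (96.4 ± 0.516 against 96.9 ± 0.218 FPKM). Import and dynamics genes rose in 25 of 32 cases, among them TFAM, which packs and transcribes mitochondrial DNA (from 7.56 ± 0.599 to 12.4 ± 0.0712 FPKM, 0.65, and 0.43 after the GC correction), and the import pore TOMM40 (from 74.2 ± 2.32 to 110.2 ± 0.159 FPKM). Fatty acid oxidation had 8 higher and 8 lower of 25, and 7 higher and 11 lower after rescaling. CPT1A, which admits long-chain fatty acids to mitochondria, rose from 62 ± 1.27 to 88.4 ± 1.25 FPKM, while ACADVL, the first dehydrogenase for very long chains, fell from 254 ± 6.48 to 179.6 ± 0.881 FPKM. Peroxisome genes were also spread, with 10 of 25 higher and 5 lower.

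Nucleotide synthesis was mostly higher. Of 35 genes of folate, one-carbon and nucleotide metabolism 26 rose and 1 fell, and 6 fell after rescaling (median 0.33). PAICS, of purine synthesis, rose from 33.2 ± 2.14 to 57.2 ± 0.235 FPKM, PRPS1, which supplies activated ribose, from 30.5 ± 1.26 to 55.4 ± 0.905 FPKM, and the cytosolic serine hydroxymethyltransferase SHMT1 from 10.1 ± 0.746 to 19.2 ± 0.098 FPKM. The mitochondrial form SHMT2 was not called (98 ± 0.335 against 96.7 ± 1.79 FPKM), and the mitochondrial folate enzyme ALDH1L2 fell from 2.02 ± 0.363 to 0.667 ± 0.0214 FPKM. In the polyamine pathway opposite steps moved apart. SMS, spermine synthase, read 133 and 131 FPKM in the double-negative and 62.2 and 64.4 in the double-positive libraries. SMOX, which oxidises spermine, read 17.8 and 17.9 FPKM in the double-negative and 42.5 and 41.4 in the double-positive libraries. ODC1, the first enzyme of the pathway, rose from 28.6 ± 1.8 to 40.8 ± 0.693 FPKM. Of 15 polyamine genes 10 rose and 3 fell.

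Lipid handling gave individual genes and no common direction. Of 23 lipid droplet genes 7 rose and 11 fell. G0S2, which blocks the fat lipase ATGL, fell from 11.2 ± 0.162 to 2.31 ± 0.436 FPKM. CD36, a fatty acid receptor, read 15.2 and 14 FPKM in the double-negative and 4.39 and 5.22 in the double-positive libraries, and CD201-only libraries had 3.69 and 4 FPKM. In the sphingolipid list SPHK1, which makes sphingosine 1-phosphate, fell from 107 ± 0.951 to 41.4 ± 0.514 FPKM, and CERS6, a ceramide synthase, rose from 8.16 ± 1.37 to 20.0 ± 0.512 FPKM. B3GALT5, which builds the globo-series antigens of pluripotent cells, rose from 3.27 ± 0.04 to 9.49 ± 0.311 FPKM. Of 23 genes in that list 11 rose and 6 fell, turning to 6 higher and 8 lower after rescaling. Steroid and xenobiotic genes had 14 of 29 higher and 11 lower, turning to 8 higher and 11 lower after rescaling. Carboxylesterase CES1 rose from 0.24 ± 0.0334 to 1.91 ± 0.212 FPKM, and the bile acid pathway enzyme HSD3B7 fell from 13.7 ± 0.491 to 6.25 ± 0.565 FPKM.

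Redox and iron genes also parted. In the NRF2 and glutathione list 15 of 37 fell and 10 rose. Rescaling gave 18 lower and 9 higher, and the GC correction 13 lower and 13 higher. SOD3, the secreted superoxide dismutase, read 9.68 and 10.2 FPKM in the double-negative and 53.9 and 51.4 in the double-positive libraries. Catalase (CAT), which breaks down hydrogen peroxide, fell from 25.2 ± 1.28 to 12.6 ± 0.121 FPKM, and PRDX1, an abundant cytosolic peroxiredoxin, rose from 399.8 ± 55.2 to 736 ± 4.48 FPKM. SOD1, the cytosolic dismutase, was not called (221 ± 4.7 against 207 ± 10.4 FPKM). For iron, the transferrin receptor TFRC rose from 8.1 ± 0.597 to 19.5 ± 0.315 FPKM and the heme exporter FLVCR1 from 3.12 ± 0.301 to 7.9 ± 0.253 FPKM. The iron reductases CYBRD1 and STEAP3 fell from 12 ± 2.11 to 2.58 ± 0.167 FPKM and from 19.2 ± 0.402 to 6.64 ± 0.38 FPKM. The list as a whole had 9 higher and 10 lower of 24.

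Listed receptors for extracellular signals were more often lower. Of 58 G protein-coupled receptor genes listed 33 were tested, of which 24 fell and 5 rose (median -0.61), with 11 down by 2-fold. The list does not hold every such receptor. GRPR, among the largest rises above with a log2 difference of 1.84, is a G protein-coupled receptor outside it. BDKRB2 and BDKRB1, the receptors for bradykinin, fell from 9.29 ± 0.254 to 1.39 ± 0.0351 FPKM and from 2.98 ± 0.078 to 0.473 ± 0.0134 FPKM. EDNRA, the endothelin receptor of contractile cells, read 2.11 and 1.91 FPKM in the double-negative and 7.81 and 8.07 in the double-positive libraries. The histamine receptor HRH1 fell from 4.71 ± 0.225 to 1.1 ± 0.047 FPKM and the neurotensin receptor NTSR1 from 2.12 ± 0.143 to 0.133 ± 0.0214 FPKM. Many of these receptors were low in every group, and BDKRB1 and NTSR1 passed the FPKM limit only through the double-positive libraries. GPRC5B was not called at 10.5 ± 0.167 against 10.5 ± 0.666 FPKM. Downstream, RGS3 and RGS5, which shorten G protein signals, moved apart. RGS3 read 10.8 and 11.4 FPKM in the double-negative and 45.8 and 44.6 in the double-positive libraries. RGS5 read 29.7 and 30.5 FPKM in the double-negative and 11.1 and 12.5 in the double-positive libraries. In the RGS and cAMP list 14 of 37 rose and 16 fell, and the kinase regulatory subunit PRKAR2B rose from 45.9 ± 0.138 to 87.2 ± 1.2 FPKM.

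The prostaglandin and leukotriene list had 7 of 16 lower, 5 of them by 2-fold, and 6 higher. PTGS1, cyclooxygenase 1, fell from 14.3 ± 0.0823 to 2.65 ± 0.0213 FPKM, the prostacyclin receptor PTGIR from 10.0 ± 0.792 to 1.16 ± 0.0958 FPKM and the prostaglandin E receptor PTGER1 from 4.47 ± 1.14 to 0.777 ± 0.256 FPKM. HPGD, which inactivates prostaglandins, rose from 7.39 ± 0.0549 to 17.1 ± 1.45 FPKM (log2 difference 1.11). PTGS2, cyclooxygenase 2, was low and not called (1.43 ± 0.0197 against 1.61 ± 0.422 FPKM).

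Innate immune genes were mostly lower. In the NF-kB and Toll-like list 17 of 31 fell and 6 rose, and 3 rose after rescaling. The NF-kB subunits RELA and RELB fell from 31.3 ± 0.616 to 18.2 ± 0.483 FPKM and from 13.7 ± 1.75 to 6.83 ± 0.014 FPKM, and IL1R1, the receptor for interleukin-1, from 6.44 ± 0.623 to 1.12 ± 0.00771 FPKM. Among TNF ligands and receptors 16 of 23 fell. TNFRSF12A, the receptor for TWEAK, read 53.5 and 55.3 FPKM in the double-negative and 128 and 123 in the double-positive libraries. TNFRSF6B, a secreted decoy receptor, fell from 35.6 ± 0.0555 to 7.31 ± 0.553 FPKM and CD40 from 5.02 ± 0.492 to 1.2 ± 0.264 FPKM, while TNFRSF11A, the receptor RANK, rose from 2.17 ± 0.288 to 7.26 ± 0.0778 FPKM. Complement genes had 7 of 13 lower and 5 higher. C1S, a protease of the classical pathway, fell from 24.6 ± 1.45 to 8.66 ± 0.555 FPKM, C3 from 4 ± 0.248 to 1.1 ± 0.0648 FPKM, PTX3, a soluble pattern receptor, from 24.1 ± 0.278 to 7.58 ± 0.433 FPKM, and CD59, which blocks the membrane attack complex, from 78.5 ± 4.13 to 29.2 ± 0.803 FPKM. Genes of cell death were evenly divided, with 11 higher and 11 lower of 29, and 11 higher and 13 lower after rescaling. APAF1, the platform of the apoptosome, rose from 7.17 ± 0.549 to 13.5 ± 0.27 FPKM, the inflammatory caspase CASP4 fell from 8.9 ± 1.41 to 4.32 ± 0.23 FPKM, and BAX was not called at 372 ± 0.593 against 371 ± 20.8 FPKM.

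Ion transport lists held more falls than rises among channels. Of 20 potassium and chloride channel genes 11 fell and 3 rose. KCNMA1, the pore of the large-conductance calcium-activated channel, read 5.18 and 4.88 FPKM in the double-negative and 20.0 and 18.9 in the double-positive libraries. Its regulatory subunit KCNMB4 rose from 11.4 ± 0.645 to 26.7 ± 0.301 FPKM, so subunits that can join in 1 channel moved in opposite directions. CLIC3 fell from 21.4 ± 0.304 to 4.08 ± 0.484 FPKM. Among calcium, sodium and other cation channels 10 of 23 fell and 6 rose. TRPV2 fell from 17.7 ± 0.754 to 4.62 ± 0.135 FPKM, and ITPR2, the inositol trisphosphate receptor of the endoplasmic reticulum, rose from 5.14 ± 0.141 to 11.7 ± 0.03 FPKM. Pumps and water channels had 9 higher and 6 lower of 23, and 9 higher and 9 lower after rescaling. The plasma membrane calcium pumps ATP2B1 and ATP2B4 moved apart, with ATP2B1 rising from 9.57 ± 0.835 to 21.9 ± 0.395 FPKM and ATP2B4 falling from 36.9 ± 1.48 to 20.8 ± 0.0612 FPKM. The water channel AQP1 fell from 3.7 ± 0.361 to 0.642 ± 0.106 FPKM. Of 9 gap junction genes 4 fell and 1 rose. GJB2, connexin 26, fell from 2.15 ± 0.338 to 0.232 ± 0.131 FPKM, and GJA1, connexin 43, was not called (59.6 ± 1.03 against 64.3 ± 6.83 FPKM).

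Actin genes were more often lower, and interphase microtubule genes more often higher. Of 49 actin and focal adhesion genes 27 fell and 16 rose. PDLIM4, which binds actin-crosslinking alpha-actinin, fell from 33.1 ± 1.11 to 11 ± 0.359 FPKM, and FHL2, a LIM-domain cofactor of adhesion sites, from 57 ± 1.49 to 25.3 ± 1.14 FPKM. FLNA, the crosslinker filamin A, was not called (359 ± 0.296 against 364 ± 10.4 FPKM). Interphase microtubule genes rose in 21 of 36 cases, 6 by 2-fold. MAP2, a microtubule-binding protein of dendrites, read 62.1 and 61.2 FPKM in the double-negative and 26.9 and 28.1 in the double-positive libraries. Its CD201-only values of 29.2 and 29.2 FPKM were close to the double-positive ones. MAP7, which recruits kinesin, rose from 1.78 ± 0.00359 to 6.45 ± 0.582 FPKM, and MAP1A fell from 17.2 ± 0.315 to 6.95 ± 0.1 FPKM.

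Adhesion and guidance genes were divided. CDH2, N-cadherin, read 91.7 and 90.6 FPKM in the double-negative and 38 and 40.1 in the double-positive libraries. CDH13, a cadherin anchored by lipid, read 13.1 and 13.6 FPKM in the double-negative and 37.5 and 41.8 in the double-positive libraries. In the cadherin list 10 of 21 rose and 7 fell, turning to 6 higher and 8 lower after rescaling. In the list of immunoglobulin-type adhesion molecules 9 rose and 10 fell of 24, turning to 11 and 9 after the GC correction. ICAM1, the leukocyte ligand, fell from 30.4 ± 0.259 to 9.1 ± 0.33 FPKM, and NTM, a neural adhesion molecule, from 8.77 ± 0.305 to 1.35 ± 0.281 FPKM. LSAMP, of the same small family as NTM, rose from 0.291 ± 0.129 to 1.78 ± 0.309 FPKM. ISLR fell from 24.2 ± 1.49 to 4.84 ± 0.122 FPKM, and its CD201-only values of 21.1 and 22.2 FPKM were close to the double-positive ones. Among semaphorins, netrins, SLITs and their receptors 15 of 33 fell and 8 rose, and 5 rose after rescaling. The ligand SLIT3 fell from 13.4 ± 0.177 to 2.35 ± 0.0874 FPKM and SEMA6A rose from 1.29 ± 0.0829 to 5.29 ± 0.211 FPKM. The receptors NRP1 and NRP2 were not called, at 54.9 ± 0.0146 against 57.5 ± 0.803 and 56.7 ± 0.0382 against 56 ± 1.47 FPKM.

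Transcription factors outside the pluripotency list went both ways. Of 45 homeobox and T-box factors outside the HOX clusters 14 rose and 20 fell. LHX9, described above, was among the rises, and ZEB2, a driver of mesenchymal state, fell from 4.25 ± 0.155 to 1.24 ± 0.0672 FPKM. Of 42 GATA, SOX, ETS and bHLH factors 20 fell. EPAS1, the hypoxia-inducible factor HIF-2 alpha, read 2.36 and 2.13 FPKM in the double-negative and 13 and 13 in the double-positive libraries. The Notch target HEYL fell from 4.33 ± 0.0409 to 0.41 ± 0.0189 FPKM, SOX9, a factor of cartilage, from 3.34 ± 0.00644 to 0.663 ± 0.0586 FPKM, and SOX21 rose from 0.586 ± 0.00632 to 2.57 ± 0.316 FPKM. Among nuclear receptors 10 of 20 fell and 4 rose. PPARG, the regulator of fat cells, read 12.7 and 14.3 FPKM in the double-negative and 4.62 and 4.61 in the double-positive libraries. NR2F2 (COUP-TFII), a factor of mesenchyme and veins, fell from 12.2 ± 0.431 to 3.69 ± 0.208 FPKM.

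Other signalling lists had calls in both directions. The clock list had 11 of 19 genes not called. The repressor NR1D1 (REV-ERB alpha) fell from 15.7 ± 0.205 to 5.29 ± 0.272 FPKM, the repressor CRY1 rose from 7.15 ± 0.993 to 11.3 ± 0.125 FPKM (0.60, and 0.36 after the GC correction), and CSNK1E, the clock kinase, was not called at 88.8 ± 2.81 against 88.7 ± 1.25 FPKM. Hedgehog genes had 6 of 15 lower and 3 higher. GAS1, a coreceptor, fell from 12.1 ± 0.37 to 4.38 ± 0.137 FPKM, the target GLI1 from 2.55 ± 0.299 to 1.45 ± 0.133 FPKM, and SCUBE2, which releases the ligand, rose from 20.5 ± 0.664 to 38.6 ± 0.921 FPKM. SMO, the signal transducer, was not called (13.2 ± 1.01 against 12.3 ± 0.43 FPKM). Hypoxia response genes had 9 higher and 10 lower of 27. EGLN3, an oxygen sensor, rose from 0.728 ± 0.255 to 3.08 ± 0.346 FPKM, NDRG1 fell from 40.3 ± 1.88 to 20.1 ± 0.663 FPKM, and HIF1A itself was not called (23.3 ± 0.977 against 26 ± 0.0634 FPKM). The insulin and mTOR list had 13 higher and 12 lower of 35, turning to 9 higher and 13 lower after rescaling. SGK1, a kinase downstream of PI3K, rose from 36.8 ± 1.79 to 89.6 ± 0.15 FPKM and PIK3IP1, an inhibitor of PI3K, fell from 10.9 ± 0.393 to 3.44 ± 0.0323 FPKM.

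Secreted peptides and growth factors fell in 21 of 32 cases, 6 by 2-fold, and rose in 8. KISS1, which encodes kisspeptin, read 2.48 and 2.48 FPKM in the double-negative and 15 and 15.1 in the double-positive libraries, with 0.152 and 1.02 FPKM in the CD201-only libraries. INHBA, a chain of activin A, fell from 16.5 ± 0.0933 to 5.16 ± 0.604 FPKM, hepatocyte growth factor (HGF) from 2.13 ± 0.361 to 0.292 ± 0.0804 FPKM, and ANGPT1, a ligand of the endothelial receptor TIE2, rose from 1.53 ± 0.00798 to 4.86 ± 0.193 FPKM. BDNF, a neurotrophin, was at 7.59 ± 0.855 against 7.66 ± 0.595 FPKM and was not called.

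Markers of other cell types were checked in the same libraries. The list of keratinocyte markers summed to 48.5 and 49.1 FPKM in the double-negative, 175 and 178 in the double-positive and 136 and 137 in the CD201-only libraries. Of its 14 genes 6 were tested, KRT5, KRT14, KRT16, KRT6A and KRT17 were lower, and SFN was not called. Of the other genes DSC3 was listed at 0, KRT6B reached at most 0.0369, TP63 reached at most 0.0405, DSG3 reached at most 0.133, IVL reached at most 0.374, SPRR1B reached at most 0.558, KRT15 reached at most 0.57 and SPRR2D 2.35 FPKM in any library. The sum includes KRT14. Between double-negative and double-positive libraries it was lower where KRT14, KLK14 and SLURP1 were lower. The CD201-only sums were nearer the double-positive ones, but much of each came from SFN. SFN read 57.85 and 56.59 FPKM in the CD201-only libraries. It read 20.8 and 21.86 in the double-negative and 22.86 and 22 in the double-positive libraries. KRT14, at 2.92 and 2.51 FPKM, and KLK14, at 4.83 and 5.44 FPKM, were near the double-negative level in the CD201-only libraries. The part of keratinocytes in these results was not tested. Endothelial markers summed to 39.2 and 39.6, 65 and 67.2 and 53.1 and 56.2 FPKM in the same order, with 6 of 8 tested genes lower and 2 higher. PECAM1 was at most 0.0677 FPKM, CDH5 at most 0.261, and SOX17 was listed at 0 in every library, while KDR, a VEGF receptor, rose from 0.593 ± 0.0119 to 3.06 ± 0.0139 FPKM and the guidance receptor ROBO4 fell from 5.39 ± 0.208 to 0.385 ± 0.0992 FPKM. Blood markers summed to 69.9 and 71.4, 134 and 141 and 100.4 and 100.5 FPKM, 5 of 7 tested genes being lower and 2 higher, and PTPRC, the marker of all white blood cells, was at most 0.886 FPKM. CD68, a lysosomal protein of macrophages and fibroblasts, fell from 54.3 ± 2.38 to 11.3 ± 1.55 FPKM. Neural markers summed to 359.9 and 368, 332 and 336 and 338 and 339 FPKM, and of 5 tested genes MAP2 and TUBB3 were higher, STMN2 and NES lower and NCAM1 not called. SOX3 and NEUROD1 were listed at 0 in every library and PAX6 was at most 0.0157 FPKM. The part of other cells in these results was not tested.

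Features that the comparison did not use were then set beside the differences, as a description with no test. GC content of the longest transcript (GENCODE, 11986 genes matched) was compared in 5 bins of equal size. From the lowest to the highest bin, 1.33%, 2.59%, 4.13%, 6.63% and 9.64% of genes were 2-fold lower, and 2.09%, 3.21%, 2.04%, 1.63% and 1.29% were 2-fold higher. The median difference ran from 0.245 in the lowest bin to -0.105 in the highest. Across genes, which are not independent and share all libraries, the correlation of GC content with the difference was -0.291. The same correlation for the difference between replicate libraries was -0.016 in the double-negative and 0.154 in the double-positive group. GC content can affect both biology and library preparation, and its part in these results was not tested beyond the GC correction, under which 559 genes were 2-fold lower and 203 higher.

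**Figure D4:**
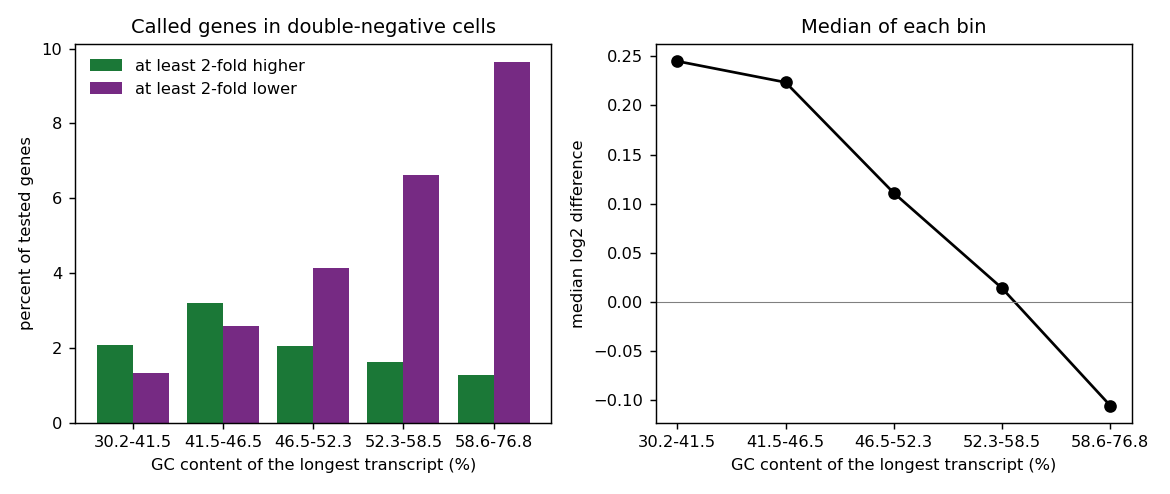
Left, percent of tested genes in each of 5 bins of transcript GC content that were called at least 2-fold higher or lower in double-negative than in double-positive cells; right, median log2 difference of each bin. The share of 2-fold falls goes up with GC content from 1.33% to 9.64%, and the median goes down.

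CpG sites were counted in the promoter window (the 250 bases before the start), as a description with no test. Of 4 bins by CpG count, the lowest had 3.1% of genes 2-fold higher and 7.95% 2-fold lower, and in the other 3 bins the shares were 1.35% to 1.59% and 2.94% to 3.06%. Among 421 tested long noncoding RNA genes 11 (2.61%) were 2-fold higher and 18 (4.28%) lower, near the 2.07% and 4.8% of all tested genes. By chromosome, the largest share of 2-fold rises was on chromosome 4 (5.25%) and the largest share of 2-fold falls on chromosome 19 (6.21%), a chromosome of high GC content.

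Short motifs were counted on both strands of the 9805 promoter windows that matched a tested gene. TGANTCA is a loose form of the core bound by AP-1, which usually has C or G in the middle. Any base was allowed there. TGANTCA was in 9.4% of windows of 2-fold lower genes, 7.73% of 2-fold higher genes and 3.78% of all tested genes. ATGCAAAT, the octamer bound by OCT factors, was in 4.97% of windows of 2-fold higher genes, 2.41% of 2-fold lower genes and 1.2% of all tested genes. CACGTG, the E-box bound by MYC, was in 8.29%, 4.34% and 9.05% of windows of higher, lower and all tested genes. TGCGCNC was in 27.1%, 19.3% and 27.2%, and GGAATG, the core bound by TEAD factors, in 8.84%, 12% and 9.67%, in the same order. Motif shares vary with base composition, as the CpG and GC results above do. Of all 27305 promoter windows, TGANTCA was in 6.6% and ATGCAAAT in 1.66%. Among 30 named genes with a promoter in the table, TGANTCA was in 1, ECM1, which fell. ATGCAAAT was in 3, of which KCTD12 and ALDH1A1 rose and IL1B fell. The promoters of ECM1 and ALDH1A1, chosen after their matches were seen, are shown with the matches in capitals, as 250 bases before the start from RefSeq on GRCh38.p14.
ECM1, chr1:150507859-150508108, plus strand: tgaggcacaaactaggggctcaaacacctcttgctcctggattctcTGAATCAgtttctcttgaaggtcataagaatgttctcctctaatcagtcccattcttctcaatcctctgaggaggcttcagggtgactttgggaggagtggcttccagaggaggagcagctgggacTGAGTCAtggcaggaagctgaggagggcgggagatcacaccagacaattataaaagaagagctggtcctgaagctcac
ALDH1A1, chr9:72953054-72953303, minus strand: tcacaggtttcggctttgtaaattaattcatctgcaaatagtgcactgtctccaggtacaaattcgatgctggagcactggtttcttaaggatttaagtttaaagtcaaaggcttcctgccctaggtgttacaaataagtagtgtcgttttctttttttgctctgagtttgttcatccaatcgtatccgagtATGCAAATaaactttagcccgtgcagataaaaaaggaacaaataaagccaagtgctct
ECM1 held 2 matches, TGAATCA and TGAGTCA, of which only TGAGTCA has C or G in the middle. ALDH1A1 held 1 match to ATGCAAAT. ECM1 read 25.7 and 26.2 FPKM in the double-negative and 118 and 109.6 in the double-positive libraries. ALDH1A1 read 116 and 116 FPKM in the double-negative and 45.4 and 58.9 in the double-positive libraries, and the spread between its double-positive libraries was wide beside that of its double-negative ones. A match is a description of these letters and not of binding.

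The double-negative libraries were also compared with the CD201-only libraries, which lack CD13 by the same sort but keep CD201. The 2 comparisons share the double-negative libraries, so their agreement is not counted. Against CD201-only cells 2663 genes (21.7%) were higher and 1981 (16.2%) lower, and 134 (1.09%) and 135 (1.1%) of them passed 2-fold. For the 6 largest rises that also passed 2-fold here, the log2 difference against CD201-only cells was 1.73 for GPC4, 1.88 for MT1G, 1.99 for MT1H, 1.12 for SOSTDC1, 1.36 for PROM1 and 1.54 for SERPINB9. For the 6 largest falls it was -1.09 for ALDH3A1, -1.03 for SLURP2, -2.60 for LYPD2, -1.06 for LY6D, -1.61 for PTGDS and -1.04 for HTRA3. Other genes far apart between double-negative and double-positive cells were close to the CD201-only level. PLAU differed by 0.14 and MMP11 by 0.20. Other genes stood the other way, such as IL1B at 1.70 and KISS1 at 1.19, higher in double-negative than in CD201-only cells though lower than in double-positive cells.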

How the data were processed

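Poly-A RNA of sorted BJ cells was sequenced in 6 libraries, 2 per group. The authors deposited 1 table of FPKM values for 27788 gene symbols, and the submitters' processing notes name STAR, Cuffnorm, hg19 and GRCh37. Tool versions, the annotation and how Cuffnorm scaled libraries are not stated in the sources used here. Sums of FPKM and relative depth are in the report.

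Each value was taken as log2(FPKM + 1). The 12248 genes whose mean over the 4 libraries compared reached 1 FPKM were fitted in limma 3.58.1 (R 4.3.3) with a variance trend, a coefficient per group over all 6 libraries, 3 residual and 4.02 prior degrees of freedom, and Benjamini-Hochberg adjustment over all of these genes. Values are mean FPKM ± SD, n = 2. The procedure was tested on simulated data. Python 3.11.15, pandas 2.3.3, numpy 2.4.6 and matplotlib 3.10.9 were used.

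Named genes are ANPEP and PROCR, and the largest rises and falls outside the set-apart lists that were called and did not overlap between groups (15 each way at 5 FPKM or more, 10 each way at 100 FPKM or more, 6 each way that were also 2-fold against CD201-only cells). From each of 61 gene lists up to 5 called members and up to 2 members not called were eligible. The members, lists and rule were chosen with earlier results of these data known. Outside this rule, and chosen after their values were seen, are HPGD, MT2A, SLC39A10, the genes in runs of neighbours and the markers of other cell types at or near 0. Some eligible genes and 1 list are not reported here.

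GC content came from GENCODE transcripts and promoters from RefSeq (GRCh38.p14), matched by symbol for 11986 and 9805 tested genes. Alternatives covered pseudocount, filter, scaling, samples, variance trend, replicate number and left-out libraries. A GC correction (a loess of each library's deviation from the gene mean on GC content, subtracted) and the averaging of both double-negative libraries were added after seeing the data.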

Additional observations from a re-analysis of the deposited data

How the results depend on the processing

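Of 254 named genes, 231 were called, and none of these reversed its direction in any of the 16 alternatives. Most were named for being called with large differences in these same libraries. That choice favours a stable direction, so the result is no separate support. NANOS3, PSMD14 and TEX10 lost their calls in some, with values beside each in the report. On the log2(FPKM + 5) scale the differences of 76 called genes moved by over 1.5 times, and with a pseudocount of 0.1 those of 22, which the scale itself gives at low FPKM. The count of genes 2-fold higher, 253, became 164 with a filter of at least 5 FPKM, which tests fewer genes, 456 with a pseudocount of 0.1 FPKM and 69 with one of 5 FPKM, and the count 2-fold lower, 588, became 262 with a pseudocount of 5 FPKM. After a correction for transcript GC content 4508 genes were higher and 3138 lower, 203 and 559 of them 2-fold, and after median-ratio rescaling 3686 and 3930, with 181 and 709 at 2-fold. The 4644 calls against CD201-only cells became 2838 with the double-negative libraries averaged as 1. They became 2895 and 3035 without double-negative replicate 1 or 2. These alternatives have fewer samples. The range was 2895 to 4902 when any 1 double-negative or double-positive library was left out. Leaving out a CD201-only library was not tried. The labels do not say whether replicate numbers pair libraries. Deviations from the group mean correlated at -0.07, 0.0906 and 0.125 between groups. These values cannot decide it, because how much of the difference between replicate libraries was counting noise is not known. Replicate libraries differed by about the estimated counting noise. That estimate rests on absolute depth, which the smallest steps between FPKM values did not fix well, since it varied far more between libraries than relative depth did. With the replicate number as a block 5149 genes were called higher and 3029 lower, 253 and 588 at 2-fold, and 4619 against CD201-only cells. Medians of 14 lists, all within 0.171 of 0, changed sign in some alternative. Of 23 named genes that were not called, 19 passed the threshold in some alternative, 11 being called higher and 5 lower after GC correction and 13 lower after median-ratio rescaling, and BAX, CSNK1E, EMD, FLNA, HSF1, SFN and SHMT2 were called in opposite directions by these 2. Values that changed sign follow, and the cause was not tested. Under GC correction the log2 difference was 0.14 for EMD, 0.18 for FLNA, 0.16 for HSF1, -0.018 for NRP2, 0.15 for SFN. Under median-ratio rescaling the log2 difference was -0.11 for BAX, -0.12 for CSNK1E, -0.072 for CTSF, -0.10 for DAXX, -0.10 for NRP2, -0.10 for SHMT2, -0.013 for SMO, -0.025 for SOD1, -0.12 for SURF4, -0.0068 for XRCC1. Under quantile normalization the log2 difference was -0.011 for BAX, -0.050 for CSNK1E, -0.015 for CTSF, -0.040 for NRP2, -0.022 for SHMT2, -0.037 for SURF4. When 1 library was left out, ranges across 0 were ANXA5 -0.12 to 0.063, BAX -0.050 to 0.064, BDNF -0.11 to 0.088, CSNK1E -0.031 to 0.033, DAXX -0.022 to 0.061, FLNA -0.051 to 0.0074, GJA1 -0.21 to 0.0032, GPRC5B -0.066 to 0.052, NCAM1 -0.18 to 0.021, NRP2 -0.0066 to 0.046, PTGS2 -0.26 to 0.067, SURF4 -0.0023 to 0.010.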
